A study of Homo sapiens with 8 samples.

Results

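Selenoproteins carry selenocysteine, the selenium analogue of cysteine, and their mRNAs were followed here together with those of the genes that make and insert this residue. The 34 genes were chosen by symbol, as the human selenoproteins and the selenocysteine machinery, among 58051 genes in the count files. They comprise 25 selenoprotein genes and 9 genes for synthesis, insertion and uptake. RNA came from A375, an established human melanoma cell line, in 4 lines labelled WT1 to WT4, all carrying wild-type *NECTIN1*, the gene the wider study inactivated elsewhere. Each line gave 1 library from cells kept in DMEM with 10% fetal bovine serum (FBS) and 1 from cells in DMEM from which serum was withheld for 12 h, so n = 4 per condition. Each line stands for 1 sample in each condition, and the sources used here do not say whether the WT lines were grown from single cells. The comparison asks how these mRNAs differed when serum, the usual selenium source of cultured cells, was removed. Selenium itself was not measured. Serum also supplies growth factors and hormones, and the wider study reports arrest of proliferation as a main part of the response. Loss of selenium cannot be told apart from these in this design.

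Total RNA was depleted of ribosomal RNA, and paired-end reads were counted per gene. Libraries held 29759279 to 73341551 counts on genes, the smallest being WT4 with serum. Reads matching several places made up 22.7% of reads on genes, ambiguous or multiply matching in WT1 with serum and 16.8% in WT2 with serum, and 5.73% to 10.1% in the other 6 libraries. Of 8 melanocyte lineage markers, *MITF* (30.1 to 44.2 CPM, counts scaled to library size) and *S100B* (13.6 to 34.9 CPM) were above 10 CPM in every library. The pigment cell genes were near absent, with *DCT* at no more than 2.90 CPM, *MLANA* 1.44, *PMEL* 0.943, *TYRP1* 0.314 and *TYR* 0.0524 CPM, and *SOX10* was at 0 in all 8 libraries. Overlaps of the markers with other genes were not examined, so 0 counts need not mean that *SOX10* was not expressed. *NECTIN1* was present in all libraries, at 44.9 to 67.4 CPM. The deposited files of the libraries labelled WT4 bear a different line name, so this line is identified by its label alone.

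In selenoprotein mRNAs a UGA codon, elsewhere a stop, is read as selenocysteine. This needs a hairpin in the 3′ untranslated region (the SECIS element), the SECIS-binding protein SECISBP2, the elongation factor EEFSEC and a dedicated tRNA on which selenocysteine is built. When selenium is scarce the UGA can act as a stop, and transcripts in which it lies well before the last exon junction can become substrates of nonsense-mediated decay. The order in which selenoproteins are lost under scarcity, with *GPX1* and *SELENOW* sensitive and *GPX4* and the thioredoxin reductases better kept, is known as the selenoprotein hierarchy.

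An annotated selenocysteine codon was found for 24 of the 25 selenoprotein genes in their reference transcripts (MANE Select, GENCODE). The codon and its flanks are shown, 5′ to 3′ as DNA with the codon in capitals, for the 6 selenoproteins whose mRNA fell without serum, because the position of this codon sets them apart from one another.
GPX1: gtggcgtccctcTGAggcaccacggtccgg
SELENOF: gaagtttgtggaTGAaaattgggaaggttc
SELENOK: cctccaatggctggtggaTGAggaagg
SELENOT: atttgtgtttccTGAggttataggcgggtg
SELENOI: ccaaactcagatTGActaggaatggaagaa
SELENOW: tattgtggcgctTGAggctacaagtccaag
On GRCh38 these codons lie at chr3:49358132-49358134 on the minus strand (*GPX1*, exon 1 of 2), chr1:86880690-86880692 on the minus strand (*SELENOF*, exon 3 of 5) and chr3:53885831-53885833 on the minus strand (*SELENOK*, exon 4 of 5). Those of *SELENOT* (chr3:150622392-150622394, exon 2 of 6), *SELENOI* (chr2:26389068-26389070, exon 10 of 10) and *SELENOW* (chr19:47780732-47780734, exon 2 of 6) are on the plus strand. Selenocysteine is residue 49 of 203 in GPX1, 49 of 195 in SELENOT and 13 of 87 in SELENOW, early in each protein. It is residue 96 of 165 in SELENOF. In SELENOK it is residue 92 of 94 and in SELENOI residue 387 of 397, so both proteins carry it near the C terminus.

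Of the 34 members, 28 had enough counts to be tested. *GPX6* had 0 counts in every library, which allows up to 3 counts, or 0.0409 to 0.101 CPM depending on the library. *DIO3* had 1 count in all, *SELENOV* 7, *SELENOP* 36, *DIO2* 37 and *GPX2* 75. SELENOP is the plasma selenium carrier, DIO2 and DIO3 are thyroid hormone deiodinases, and GPX2 is an epithelial glutathione peroxidase. *DIO1* passed the count filter with 68 counts in all libraries together, and its values (0.0265 to 0.308 CPM) rest on 1 to 19 counts each.

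Levels were compared between genes per length, as reads per kilobase of merged exons, scaled to library size (RPKM). With serum *GPX1*, the cytosolic glutathione peroxidase, was highest at 147 ± 31.8 RPKM (SD, n = 4) and ranked 237 among the tested genes with a known length. *TXNRD1*, the cytosolic thioredoxin reductase, followed at 86.3 ± 7.75 RPKM, and *SEPHS2*, the selenophosphate synthetase that is itself a selenoprotein, at 60.8 ± 5.43 RPKM. Next came *SELENOF*, an endoplasmic reticulum protein that binds the glycoprotein folding sensor UGGT, at 43.6 ± 5.83 RPKM, and *GPX4*, the phospholipid hydroperoxidase that restrains ferroptosis, at 32.3 ± 5.75 RPKM. *SELENOT* (25.8 ± 1.57), *SELENON* (25.2 ± 4.45), *SELENOI* (22.0 ± 2.48), *SELENOH* (21.5 ± 3.64), *SEPHS1* (21.1 ± 1.72) and *SELENOK* (18.8 ± 1.16 RPKM) formed a block in which neighbours overlapped within 1 SD. Without serum *TXNRD1* stood at 116 ± 28.6 RPKM and *GPX1* at 107 ± 7.67 RPKM, within 1 SD of each other.

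In the machinery *SEPHS1* stood highest, as given above. With serum *SECISBP2L* was at 7.61 ± 0.463 RPKM, *EEFSEC* at 5.50 ± 0.541, *SECISBP2* at 5.11 ± 0.388 and *TRNAU1AP*, a tRNA-associated factor, at 3.90 ± 0.219 RPKM. *SEPSECS*, which makes selenocysteine on its tRNA, was at 2.00 ± 0.121 RPKM, *PSTK*, the kinase acting one step earlier, at 0.934 ± 0.0550 and *SCLY*, the selenocysteine lyase that recycles selenium, at 0.587 ± 0.0695 RPKM. *UBE2F-SCLY* shares 2311 of the exon bases of *SCLY* on the same strand, and the reference transcript of *SCLY* has 2450 bases. Reads in shared bases can be counted as ambiguous, so the level of *SCLY* may be understated. *LRP8*, a receptor for selenoprotein P, was at 7.85 ± 0.210 RPKM. The order depended on the length used. By MANE Select transcript length *SELENOW* was at 45.6 ± 5.01 rather than 6.70 ± 0.736 RPKM with serum, and *GPX4* at 69.8 ± 12.4 RPKM, above *SELENOF* at 62.2 ± 8.33.

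**Figure D1:**
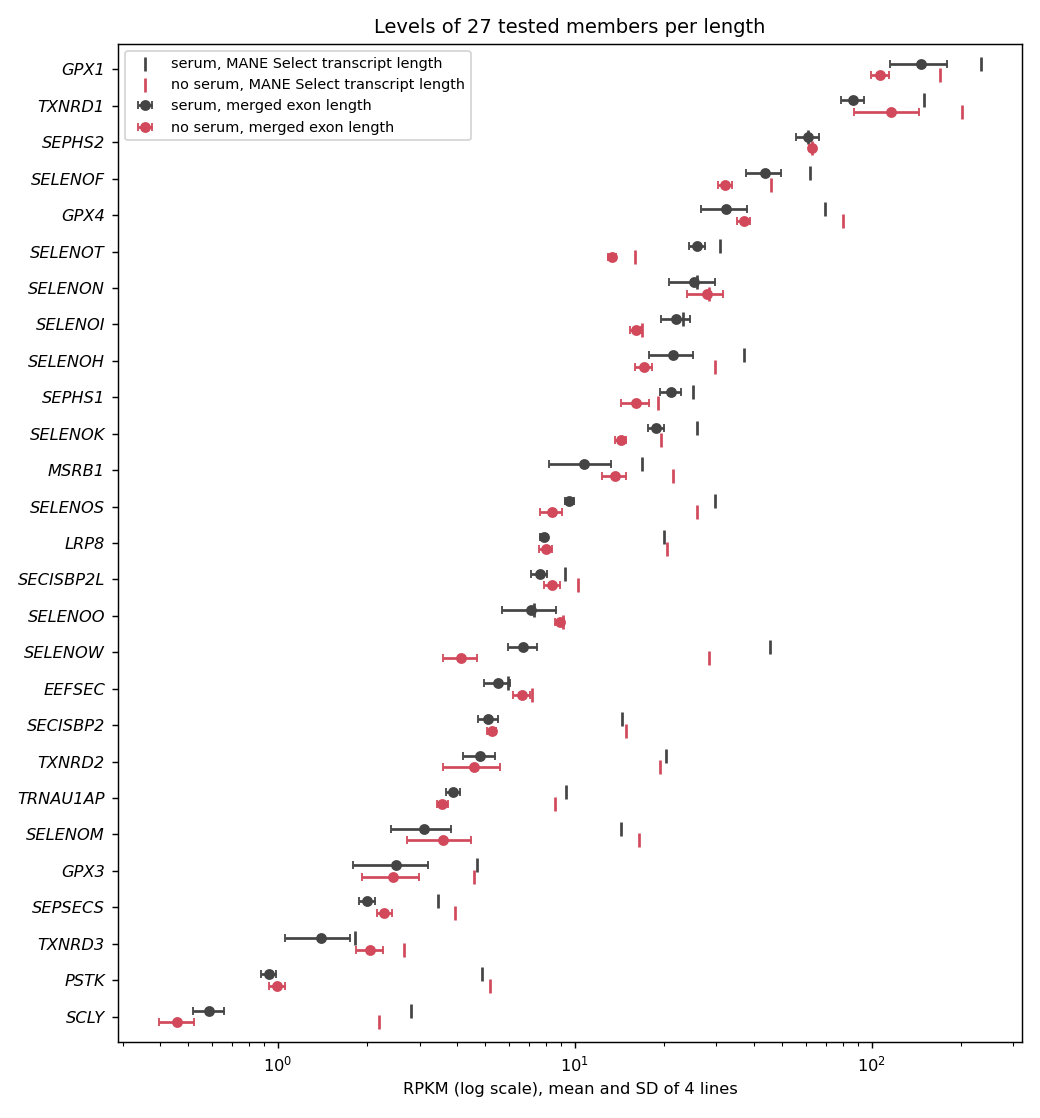
Mean RPKM on a log axis of 27 tested members with serum (grey) and without (red), with points and SD bars (n = 4 lines) for merged exon length and vertical ticks for MANE Select transcript length. *GPX1* and *TXNRD1* were highest by either length and *SCLY* lowest by merged exon length, and *SELENOW* moved most between the length definitions. *DIO1*, at 1 to 19 counts per library, is not drawn.

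Without serum 7 of the 28 tested members fell and 0 rose (edgeR's quasi-likelihood test, Benjamini-Hochberg adjusted over all genes, threshold 0.05). Falls thus made up 25.0% of tested members, against 14.0% of all 17671 tested genes, and rises 0 against 11.1%. Of the 7, 6 were selenoproteins (*SELENOT*, *SELENOW*, *GPX1*, *SELENOI*, *SELENOF*, *SELENOK*) and 1 was *SEPHS1*, the selenophosphate synthetase paralogue without selenocysteine. At an unadjusted p under 0.05, 6 members were higher and 10 lower, against 18.6% and 19.8% of all genes. DESeq2 called 2 higher and 8 lower (13.3% and 16.8% of all genes with an adjusted p), and limma's voom 2 and 7 (12.2% and 14.4%). The median log2 fold change was 0.03 over the tested members and 0.03 over all tested genes.

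The same line was sampled in both conditions, and with the line as a replicate block 10 members fell and 8 rose, 35.7% and 28.6% of those tested. The block called 22.4% of all genes lower and 23.2% higher. Upper-quartile scaling, which moved the median of all genes to 0.098, gave 6 members lower and 3 higher (*TXNRD3*, *SEPSECS* and *EEFSEC*) in place of 7 and 0, with *GPX1* no longer called, and 10.4% of all genes lower and 14.2% higher. Log2 fold changes of all genes increased with GC content (Spearman rho 0.358 over 17425 genes, which are not independent replicates). With the block and a GC correction 12 members fell (42.9%) and 6 rose (21.4%), against 24.5% and 21.6% of all genes. The 7 members named above were lower in both blocked fits.

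**Figure D2:**
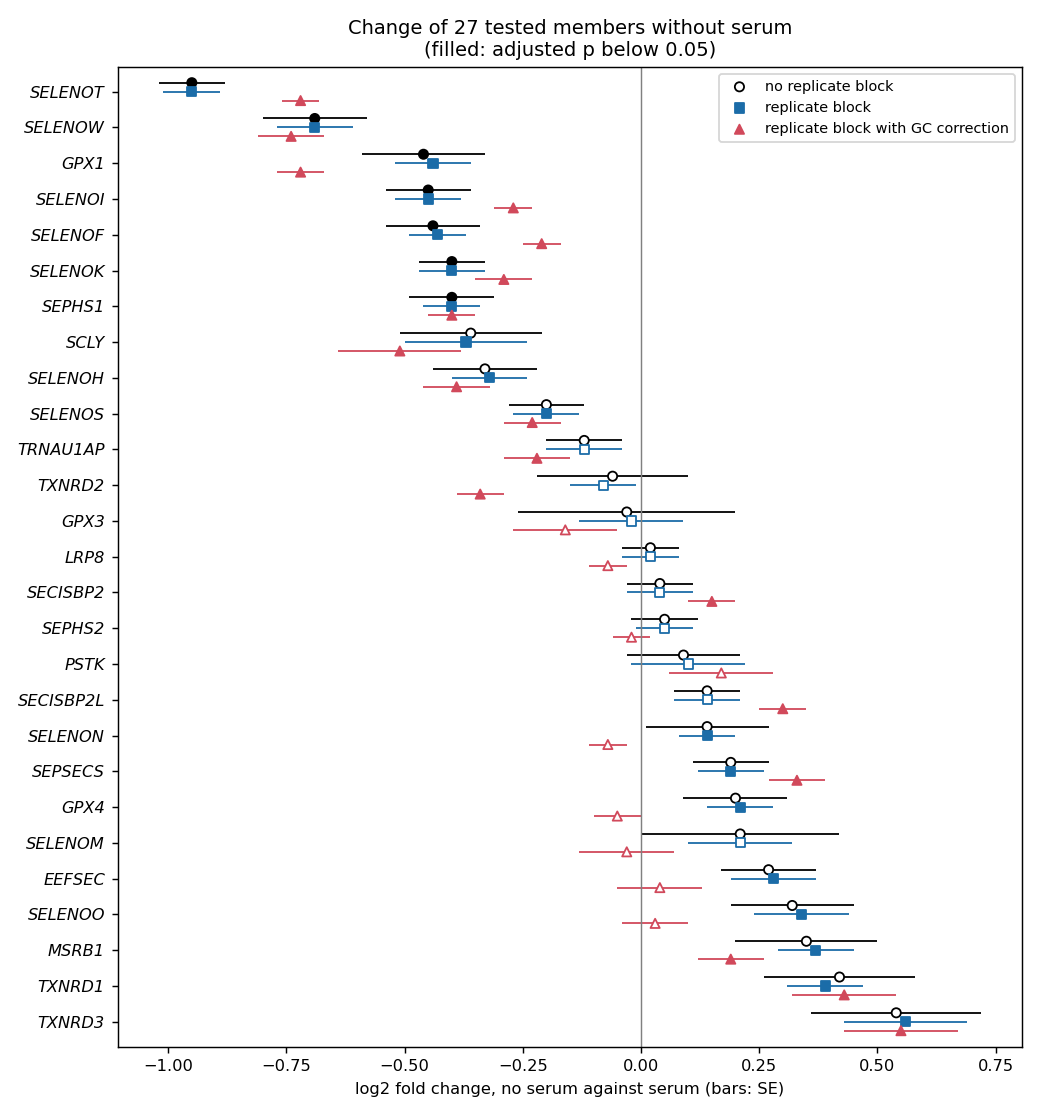
Log2 fold change without serum against with serum, with SE bars, for 27 tested members in 3 fits (circles, no block; squares, line as a replicate block; triangles, block with GC correction; filled symbols, adjusted p below 0.05). *SELENOT* (-0.95) and *SELENOW* (-0.69) lie farthest to the left in the fit without a block and *TXNRD3* (0.54) farthest to the right.

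*SELENOT* (ENSG00000198843, GRCh38 chr3:150603321-150630436), a thioredoxin-fold protein of the endoplasmic reticulum membrane, showed the largest fall among the members. With serum it stood at 112, 107, 108 and 96.8 CPM in WT1 to WT4, and without serum at 53.6, 57.2, 54.1 and 54.0 CPM. The fitted level without serum was 0.517 of that with serum, and the conditions did not overlap. On the log2 scale this was -0.95 ± 0.07 (SE; adjusted p = 0.000288, edgeR) or -0.72 after the block with GC correction, and it was called with each library and each line left out. *SERP1*, which overlaps 1.49% of its exon bases on the opposite strand, had a log2 fold change of -0.38.

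*SELENOW* (ENSG00000178980), a small cytosolic redox protein, was at 32.9, 33.2, 31.9 and 40.2 CPM with serum and at 17.5, 21.7, 22.5 and 24.0 CPM without. All 4 values without serum were below the lowest with serum, and the line highest in each condition was WT4. *SELENOW* thus had a log2 fold change of -0.69 ± 0.11 (adjusted p = 0.00339, edgeR), and the call remained with each library and each line left out.

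*GPX1* (ENSG00000233276), which reduces hydrogen peroxide with glutathione, was at 183, 200, 181 and 277 CPM with serum and at 153, 164, 138 and 157 CPM without. The conditions did not overlap, but WT4 differed far more (-0.82 on the log2 scale) than WT1, WT2 and WT3 (-0.26, -0.28 and -0.39). Over all lines the log2 fold change was -0.46 ± 0.13 (adjusted p = 0.0322, edgeR), or -0.44 with the block and -0.72 with block and GC correction. Without the serum library of WT4 it was -0.30 (adjusted p = 0.0121, edgeR). Its GC content, 64.1%, was the highest among the 7 called members. The call was lost when the serum library of WT2 (adjusted p = 0.0559), any one library without serum (0.0551 to 0.0928) or line WT1, WT2 or WT3 (0.0803 to 0.0881) was left out. In these smaller fits the log2 fold change was -0.52 to -0.42. With all lines and the block the adjusted p was 0.000523 (edgeR).

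Among the other glutathione peroxidases *GPX4* was at 51.8, 55.9, 54.9 and 75.1 CPM with serum and at 64.8, 66.0, 70.2 and 71.8 CPM without. It was higher without serum in WT1, WT2 and WT3 and slightly lower in WT4, whose serum library was the highest of all. Its fitted difference was 0.20 ± 0.11 on the log2 scale (adjusted p = 0.223, edgeR). With the block it was 0.21 (adjusted p = 0.0238), without the serum library of WT4 0.33 (0.00399), and with block and GC correction -0.05 (0.421). *GPX3*, the secreted peroxidase, ranged from 5.35 to 9.92 CPM with overlapping conditions.

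All 7 selenoproteins of the endoplasmic reticulum were tested, and 4 fell: *SELENOT*, *SELENOI*, *SELENOF* and *SELENOK*. With the block *SELENOS* fell as well and *SELENON* rose. Of all genes 14.0% fell without the block, and 22.4% fell and 23.2% rose with it. The median log2 fold change of the group was -0.40, against 0.03 over all tested genes, and -0.23 against 0.01 with block and GC correction. GC content was 34.89% in *SELENOT*, 35.34% in *SELENOF*, 38.22% in *SELENOI* and 41.35% in *SELENOK*. In *SELENOS*, *SELENON* and *SELENOM*, which did not fall without the block, it was 47.95%, 59.74% and 60.82%. The part of GC content in these falls was not tested.

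*SELENOI* (ENSG00000138018), the ethanolamine phosphotransferase of phosphatidylethanolamine synthesis, was at 200, 193, 198 and 155 CPM with serum and at 136, 141, 128 and 139 CPM without. WT4 was the lowest with serum and differed least, by -0.16 on the log2 scale. For all 4 lines the fit gave -0.45 ± 0.09 on the log2 scale (adjusted p = 0.0059, edgeR) and -0.27 with block and GC correction. Without line WT1 the adjusted p was 0.0543.

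*SELENOF* (ENSG00000183291) was at 102, 93.0, 109 and 79.4 CPM with serum and at 73.7, 71.5, 72.4 and 65.4 CPM without. Its values without serum all lay below those with serum, with WT4 lowest in both. Over the lines the fit gave a log2 fold change of -0.44 ± 0.10 (adjusted p = 0.0105, edgeR) and -0.21 with block and GC correction, and it missed the threshold without line WT1, WT2 or WT3 (0.0542 to 0.0674).

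*SELENOK* (ENSG00000113811), a membrane protein that works with the palmitoyltransferase ZDHHC6, was at 41.5, 36.5, 37.0 and 39.8 CPM with serum and at 28.3, 31.0, 28.5 and 29.5 CPM without. The conditions were apart in all 4 lines. Without a block *SELENOK* had a log2 fold change of -0.40 ± 0.07 (adjusted p = 0.00449, edgeR) and it was at 0.0505 without line WT1.

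*SELENOS*, a partner of DERL1 and VCP in the disposal of misfolded proteins, was at 35.2, 35.0, 37.4 and 36.7 CPM with serum and at 29.4, 31.7, 29.4 and 35.2 CPM without. The library of WT4 without serum overlapped the values with serum. A log2 fold change of -0.20 ± 0.08 had an adjusted p of 0.0876 (edgeR), and 0.0244 with the block. With the block *SELENOS* was called after GC correction (0.00417) and not with upper-quartile scaling (0.104). *SELENON*, which senses calcium in the reticulum, was higher in all 4 lines by 0.08 to 0.28 on the log2 scale. The fold change was 0.14 with an adjusted p of 0.477 without and 0.0463 with the block, and it was -0.07 after GC correction. *SELENOM* ran from 6.71 to 14.9 CPM, higher without serum in WT1, WT2 and WT3 and lower in WT4.

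**Figure D3:**
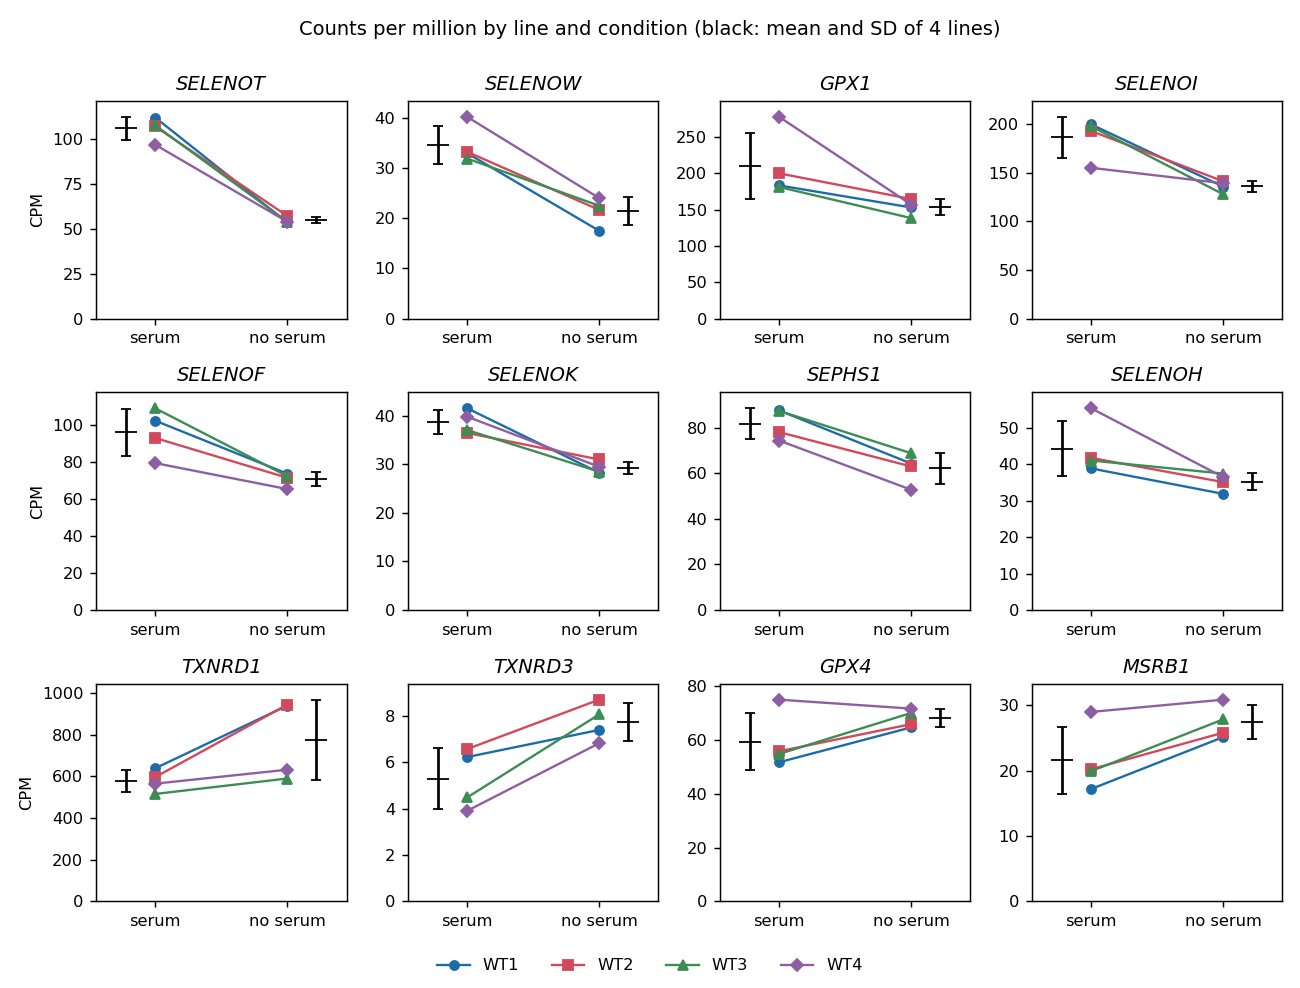
CPM of 12 members in each line with and without serum, with lines joining the libraries of 1 line and black marks for mean and SD (n = 4). The first 7 panels show the members that fell without a block, with *SELENOT* values of 53.6 to 57.2 CPM without serum all below the 96.8 to 112 CPM with serum. The *TXNRD1* panel shows WT1 and WT2 apart from WT3 and WT4 without serum.

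Of the 3 thioredoxin reductases 0 were called by edgeR without the block (2 were higher at an unadjusted p under 0.05, 2 by DESeq2 and 1 by voom), and with it *TXNRD1* and *TXNRD3* rose. Of all genes 11.1% were called higher without the block, 18.6% at that unadjusted p, 13.3% by DESeq2, 12.2% by voom and 23.2% with the block. *TXNRD1* (ENSG00000198431), which keeps cytosolic thioredoxin reduced, had the highest counts of any member. It was at 639, 597, 516 and 565 CPM with serum and at 940, 944, 590 and 632 CPM without. All 4 lines were higher without serum, WT1 and WT2 by 0.56 and 0.66 on the log2 scale and WT3 and WT4 by 0.19 and 0.16. For *TXNRD1* the log2 fold change of 0.42 ± 0.16 had an adjusted p of 0.0902 (edgeR) and the blocked one of 0.39 an adjusted p of 0.000878. DESeq2 gave 0.0484, and edgeR gave 0.0371 without the WT3 library that lacked serum.

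*TXNRD3*, the thioredoxin glutathione reductase known from testis, was low, at 6.23, 6.57, 4.49 and 3.91 CPM with serum and 7.40, 8.70, 8.07 and 6.82 CPM without. Every value without serum exceeded those with serum. The larger differences were in WT3 and WT4 (0.84 and 0.80), the reverse of *TXNRD1*. For *TXNRD3* it was 0.54 ± 0.18 overall (adjusted p = 0.0561, edgeR) and 0.56 with the block (0.00227). Without the serum library of WT2 the adjusted p was 0.044. *TXNRD2*, the mitochondrial enzyme, did not pass either of these fits (-0.06, adjusted p = 0.804, and -0.08, 0.395), but with block and GC correction it was at -0.34 (0.000102).

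*TXNRD1* alone supplied 31.0% to 36.5% of the counts of all 25 selenoprotein genes with serum and 38.0% to 49.8% without. The summed counts of these genes were 1663 to 1818 CPM with serum. Without serum they were 1887 and 1935 CPM in WT1 and WT2 and 1553 and 1639 CPM in WT3 and WT4, so the lines moved in opposite directions.

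Of the other selenoproteins *SELENOH*, a nuclear redox protein, was at 38.9, 41.8, 41.1 and 55.4 CPM with serum and 31.9, 35.1, 37.5 and 36.5 CPM without. It did not overlap between conditions, and WT4 differed most. The log2 fold change was -0.33 ± 0.11 (adjusted p = 0.0609, edgeR), -0.32 with the block (0.00311) and called by DESeq2 (0.037). *MSRB1*, the methionine sulfoxide reductase, was higher in all 4 lines, at 17.2, 20.2, 19.9 and 29.0 CPM with serum and 25.1, 25.8, 27.8 and 30.9 CPM without. The fit gave 0.35 ± 0.15 on the log2 scale (adjusted p = 0.12, edgeR), 0.37 with the block (0.00214) and 0.52 without the serum library of WT4 (0.00464). With GC correction it was 0.19, called with the block (0.0265) and not without it (0.207).

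*SELENOO*, a mitochondrial protein that transfers AMP to other proteins, was at 13.1, 15.5, 16.7 and 21.3 CPM with serum and 19.8, 21.3, 21.2 and 20.8 CPM without, with no difference of that sign in WT4. *SELENOO* had a log2 fold change of 0.32 ± 0.13 (adjusted p = 0.108, edgeR), 0.34 with the block (0.00976) and 0.03 after GC correction. *SEPHS2* ranged from 125 to 153 CPM and its log2 fold change was 0.05 ± 0.07 (adjusted p = 0.66, edgeR).

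Among the members listed under selenocysteine synthesis *SEPHS1* (ENSG00000086475) was at 87.6, 78.1, 87.4 and 74.4 CPM with serum and 64.3, 63.0, 68.8 and 52.8 CPM without. It did not overlap between conditions, and the within-line differences ran from -0.31 to -0.49. In the fit over all lines the log2 fold change was -0.40 ± 0.09 (adjusted p = 0.0139, edgeR), with 0.0821 without line WT1 and 0.0601 without line WT2. Its paralogue *SEPHS2*, the synthetase that is itself a selenoprotein, was not called (adjusted p = 0.66, edgeR, and 0.469 with the block). *SCLY* was lower in all 4 lines, by 0.01 in WT4 and by 0.28 to 0.72 in the others. Its fitted value of -0.36 ± 0.15 on the log2 scale had an adjusted p of 0.107 (edgeR) and of 0.0309 with the block. With the block *SCLY* was called after GC correction (0.00509) and not with upper-quartile scaling (0.0727).

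*SEPSECS* was at 20.5, 17.9, 19.4 and 18.5 CPM with serum and 22.3, 19.9, 22.7 and 22.3 CPM without, higher in every line. Its log2 fold change was 0.19 ± 0.08 (adjusted p = 0.118, edgeR; 0.0455 with the block). With GC correction it was 0.33 with the block (0.000654) and 0.34 without it (0.0141). *PSTK* and *TRNAU1AP* did not pass either fit, at 0.09 and -0.12, and *TRNAU1AP* was at -0.22 (adjusted p = 0.0179, edgeR) with block and GC correction.

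Of the insertion factors *EEFSEC*, the elongation factor for the selenocysteine tRNA, was at 14.0, 11.6, 12.6 and 14.4 CPM with serum and 15.4, 17.3, 15.1 and 15.7 CPM without. The conditions did not overlap, by a margin below 1 CPM. Its log2 fold change was 0.27 ± 0.10 (adjusted p = 0.0772, edgeR), 0.28 with the block (0.0256) and 0.04 after GC correction. It shares 14.3% of its exon bases with *RUVBL1* on the opposite strand, which is more abundant (107 to 177 CPM) and had a log2 fold change of -0.39. *SECISBP2* and *SECISBP2L* were at 0.04 and 0.14 without a call in either fit, and at 0.15 (0.0281) and 0.30 (0.000216) after block and GC correction. *LRP8* ranged from 149 to 167 CPM over the 8 libraries, with a log2 fold change of 0.02 ± 0.06 (adjusted p = 0.806, edgeR).

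Taking all 28 tested members, 8 lay below their serum values without overlap (28.6%, against 15.0% of all tested genes) and 2 above (7.14%, against 12.6%). Within lines, 11 members were lower in all 4 (26.6% of all tested genes were), 6 were higher in all 4 (28.8% of all tested genes) and 11 moved in both directions. WT4 stood apart in several of them: *GPX4*, *SELENOO*, *SELENOM* and *SEPHS2* were higher without serum in the other 3 lines and lower in WT4. Its serum library had the smallest depth and the highest value with serum for *GPX1*, *GPX4*, *SELENOH*, *SELENOO*, *MSRB1* and *SELENON*. Leaving that library out gave 8 members lower and 4 higher (*GPX4*, *SELENOO*, *MSRB1* and *EEFSEC*), in a fit that called 17.9% of all genes lower and 15.6% higher.

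**Figure D4:**
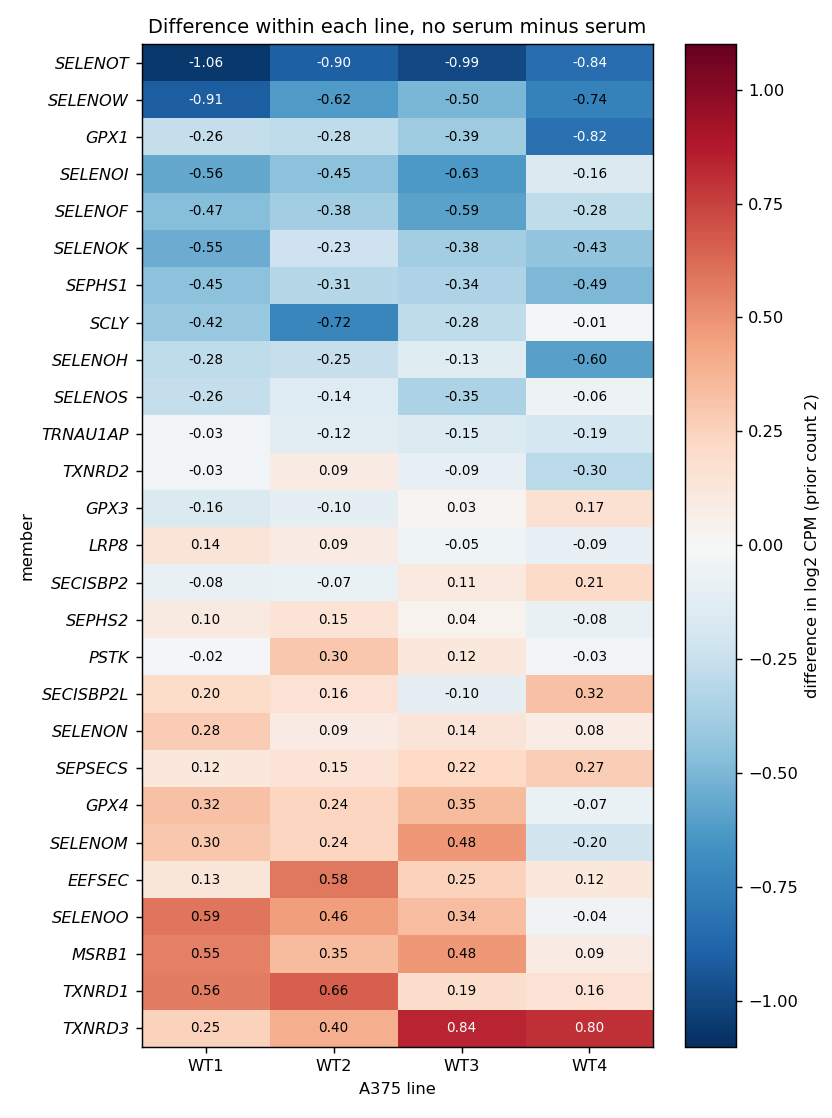
Difference in log2 CPM (prior count 2) without serum minus with serum within each line, for 27 tested members sorted by their log2 fold change. The top rows are negative in all 4 lines, from *SELENOT* (-1.06 to -0.84) to *TRNAU1AP* (-0.19 to -0.03), and *GPX4*, *SELENOM* and *SELENOO* are negative in WT4 alone.

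Leaving out other lines also moved the number of calls. Leaving out line WT1 left 2 members lower (*SELENOT* and *SELENOW*) and leaving out WT2 left 4, while leaving out WT4 gave 9 lower and 3 higher. Those that lost their call without WT1 were *GPX1*, *SELENOF*, *SELENOI*, *SEPHS1* and *SELENOK*. Their log2 fold changes were then -0.52, -0.43, -0.42, -0.38 and -0.35, against -0.46, -0.44, -0.45, -0.40 and -0.40 with all lines. The calls over all genes moved too, to 5.35% lower and 3.42% higher without WT1, 6.73% lower and 4.58% higher without WT2, and 17.4% lower and 14.3% higher without WT4. Without the serum libraries of WT1 and WT2, those with many multiply matching reads, 3 members were lower (*SELENOT*, *SELENOW* and *SELENOK*) and 1 higher (*TXNRD3*), against 3.88% and 2.00% of all genes. Pseudogene copies exist for 7 tested members, of which 5 are among the 7 called (*GPX1*, *SELENOK*, *SELENOT*, *SELENOW* and *SEPHS1*). Counts assigned to these copies never exceeded 1.49 CPM, and the part of multiply matching reads in these results was not tested.

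The lines differed in level as well. With condition as a covariate, the line mattered for 7 members (edgeR's quasi-likelihood F test), which is 25.0% of those tested against 22.9% of all genes. These were *GPX3*, *TXNRD1*, *TXNRD2*, *SELENOM*, *SELENON*, *MSRB1* and *SEPHS1*. *SELENON* was highest in WT4, at 139 and 146 CPM with and without serum against 93.6 to 121 CPM in the other lines (adjusted p = 0.00138). *TXNRD2* was lowest there, at 32.8 and 26.7 CPM against 37.3 to 45.8 CPM (adjusted p = 0.00244). *GPX3* separated WT2 (9.92 and 9.28 CPM) and WT1 (8.67 and 7.75) from WT4 (6.16 and 6.95) and WT3 (5.35 and 5.45 CPM), with an adjusted p of 0.00431. *SEPHS1* was the nearest to the threshold (0.0489). *GPX3* lost its call without line WT2 (0.0632) or WT3 (0.0838), and *TXNRD2* (0.0511) and *SELENON* (0.0986) without WT4. The other calls were less stable: among 12 leave-one-out fits (8 by library, 4 by line) *SEPHS1* lost its call in 11, *MSRB1* in 6, and *TXNRD1* and *SELENOM* in 5 each. The number of members ranged from 3 without the WT3 library lacking serum to 13 without that of WT4, while the share of all genes went from 13.4% to 42.6%. It was 4 without the serum library of WT1 (15.2% of all genes) or the WT2 library lacking serum (13.3%). Without line WT1 or WT3 it was 4 (17.7% and 15.6% of all genes), and without WT4 it was 3 (18.6%).

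The position of the selenocysteine codon differed among the members that fell. It lay 470 bases before the last exon junction in *SELENOT*, 243 in *SELENOW*, 105 in *GPX1* and 78 in *SELENOF*. In *SELENOK* the distance was 5 bases, and in *SELENOI* the codon is in the last exon, 66 bases after the junction. A distance of over 50 bases is the usual limit for a stop codon to be read as premature. Of the 11 tested selenoproteins beyond it 4 fell and 0 rose, with a median log2 fold change of -0.06, and of the other 8, 2 fell and 0 rose, with a median of 0.18. Over all genes 14.0% fell and 11.1% rose, with a median of 0.03. Members higher at an unadjusted p under 0.05 numbered 0 in the first class and 4 in the second, where DESeq2 called 2 and voom 1, against 0 for both in the first. At that unadjusted p 18.6% of all genes were higher, by DESeq2 13.3% and by voom 12.2%. Lower members in the first and second class numbered 5 and 3 at that p, 5 and 2 by DESeq2 and 4 and 2 by voom. Of all genes 19.8%, 16.8% and 14.4% were lower in these settings. With the block the counts were 5 lower and 2 higher in the first class, and 3 lower and 4 higher in the second, against 22.4% and 23.2% of all genes. With block and GC correction they were 6 lower and 0 higher (median -0.21), and 3 and 3 (median 0.01), against 24.5% and 21.6% of all genes (median 0.01). *GPX4* (342 bases), *SELENON* (1221), *SELENOM* (135) and *GPX3* (240) were beyond the limit and did not fall in any of the 3 fits drawn. The difference between both classes was not tested.

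**Figure D5:**
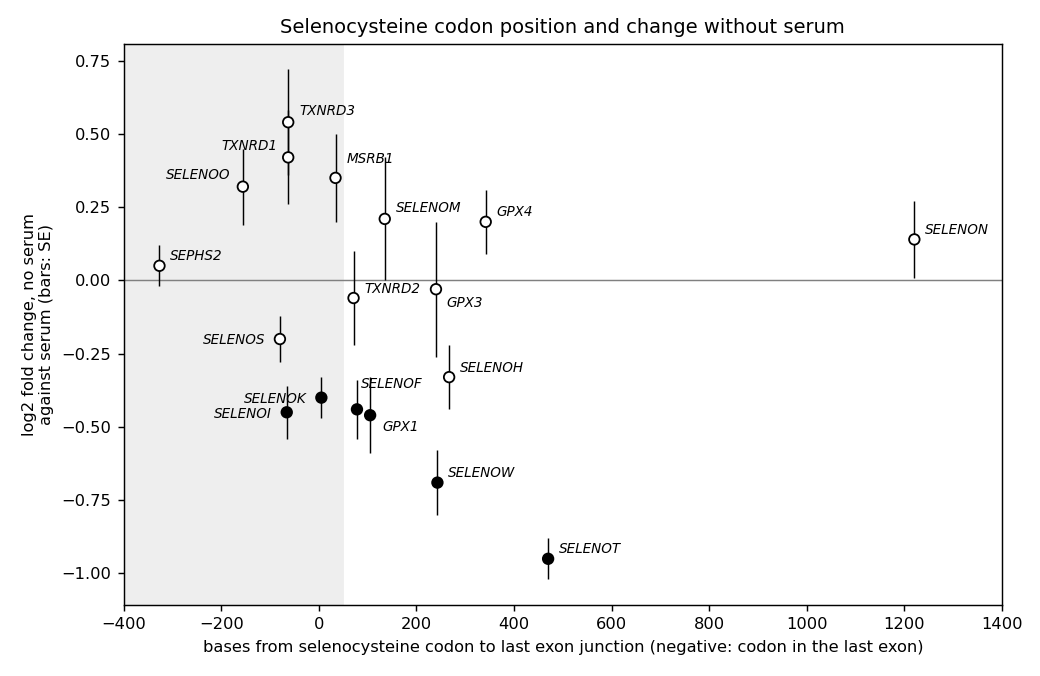
Log2 fold change without a block (SE bars) against the number of bases from the selenocysteine codon to the last exon junction for 18 tested selenoproteins. Filled points fell without serum and the grey area marks distances of 50 bases or fewer and codons in the last exon. *SELENOT* and *SELENOW* lie low at 470 and 243 bases and *GPX4* at 342 bases lies above 0. For *SELENON*, which has 2 annotated codons, the more distant one was used, and *DIO1* is not drawn.

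Of the 4 mRNAs known to fall when selenium is scarce, *GPX1* and *SELENOW* fell, and with the block *SELENOH* fell and *MSRB1* rose. Of the 4 known to hold, *SELENOF* fell, and with the block *GPX4* and *TXNRD1* rose. The median log2 fold changes were -0.39 and 0.07, against 0.03 over all genes, of which 14.0% fell and 11.1% rose, or 22.4% and 23.2% with the block. With block and GC correction they were -0.56, with 3 lower and 1 higher, and -0.13, with *SELENOF* and *TXNRD2* lower, *TXNRD1* higher and *GPX4* not called, against a median of 0.01 over all genes, of which 24.5% fell and 21.6% rose.

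Genes that work beside the selenoproteins were followed in lists chosen with earlier results of these data known. Over 68 tested genes of these lists that are not members, 22 fell and 4 rose without the block, and 29 fell and 10 rose with it. The same fits called 14.0% of all genes lower and 11.1% higher without the block, and 22.4% and 23.2% with it, and the counts of each list stand beside these shares. Among cysteine-based homologues and thiol partners, 8 of 19 tested fell and 1 rose (9 and 5 with the block). The glutaredoxins *GLRX3* (-0.63, adjusted p = 0.000855) and *GLRX2* (-0.49, 0.00293) and the mitochondrial peroxiredoxin *PRDX3* (-0.47, 0.00364) had the smallest p, and *GLRX*, named after its value was seen, rose (0.46, 0.0278, all edgeR). Of 7 genes for cystine uptake and glutathione synthesis *SLC3A2*, the heavy chain of the cystine transporter, fell (-0.75, 0.0429, edgeR) and *GCLC*, the catalytic subunit of the first enzyme of glutathione synthesis, rose (0.29, 0.0173). With the block *GCLM*, the modifier subunit of the same enzyme, fell (-0.53, 0.000316) and *GSS*, glutathione synthetase, rose (0.25, 0.00225, edgeR), both named after their values were seen. With block and GC correction *GCLM* was not called (0.0674), and 3 genes of this list rose and 1 fell, against 21.6% and 24.5% of all genes. The fall of *SLC3A2* does not show that the transporter as a whole fell. Among 3 tested genes of selenium handling the endocytic receptor *LRP1* rose (0.62, 0.00629, edgeR).

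Of 9 auxiliary factors of the tRNA and SECIS 5 fell and 0 rose, among them the RNA-binding *ELAVL1* (-0.40, adjusted p = 0.00238), the exportin *XPO1* (-0.65, 0.00251) and nucleolin, *NCL* (-0.56, 0.00526, all edgeR). At an unadjusted p under 0.05 none of them was higher, nor by DESeq2 or voom (0 each). Of 13 nonsense-mediated decay genes 4 fell, including the exon junction proteins *MAGOH* (-0.49, adjusted p = 0.00496) and *RBM8A* (-0.30, 0.00745), and *UPF3A*, named after its value was seen, rose (0.22, 0.0345, all edgeR). With the block 7 fell. Among 11 partners in the endoplasmic reticulum 3 fell (5 with the block, where 1 rose): *ZDHHC6*, the partner of SELENOK (-0.60, 0.00241), *DERL1*, that of SELENOS (-0.32, 0.00515), and *UGGT2* (-0.32, 0.0373, all edgeR), which was not called after block and GC correction (-0.13, 0.0661). Of 6 ferroptosis genes *DHODH* fell (-0.33, 0.0136, edgeR).

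Markers of other cell types were mostly low, with *KRT14* at 11.6 to 21.0 CPM the highest. Of 4 fibroblast markers 1 rose, *PDGFRA* (0.491 to 4.03 CPM over the libraries, log2 fold change 1.77, adjusted p = 0.00767, edgeR). With the block *DCN* rose as well (0.90, adjusted p = 0.0125, edgeR). Of 5 tested melanocyte lineage markers *MITF* fell (-0.28, 0.0496), and with the block *DCT* fell (0.0251) and *S100B* rose (0.26, 0.0469, edgeR), neither of which was called with block and GC correction (0.0597 and 0.181). The part of these markers in the members' results was not tested. Of the 5 tested markers of epithelium, leukocytes and endothelium 0 were called by edgeR without the block, 0 had an unadjusted p under 0.05, and DESeq2 and voom called 0. With block and GC correction *KRT14* was lower (-0.40, adjusted p = 0.00139, edgeR). *PTPRC*, which marks leukocytes, did not exceed 0.0514 CPM.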

How the data were processed

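The authors deposited raw counts per gene, 1 file per library, made on GRCh38. The submitters' processing notes list cutadapt, TopHat2 2.0.11 and HTSeq, and the annotation release and strand setting are not given in the sources used here, so genes overlapping on opposite strands are uncertain. Genes sharing exon bases on the same strand can lose reads as ambiguous. Among them are *SCLY* and *SELENOH*, which shares 20.8% of its exon bases with ENSG00000254732, a gene at 0 CPM in all libraries. Rows for ambiguous and multiply matching reads were left out of library sizes (8.23% to 11.5% and 5.73% to 22.7% of reads).

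Symbols were matched by Ensembl identifier (55604 of 58051 genes). Lengths, GC content and codon sequences came from GENCODE v44 lifted to GRCh37, codon positions from the GRCh38 locations it records, and gene positions from RefSeq. After filterByExpr and TMM scaling, the quasi-likelihood test of edgeR 4.0.16 (robust glmQLFit, then glmQLFTest) was run in R 4.3.3 on condition alone, with Benjamini-Hochberg adjustment over 17671 genes. Lines were compared by an F test in line plus condition. CPM and RPKM used the TMM-scaled library sizes. SE is the log2 fold change over the root of F. P-values of the fit on condition alone measure the spread between 4 lines, 1 library each. Those of the blocked fits measure the spread of the differences within lines. The line test takes the 2 conditions of a line as its samples. Same-numbered libraries come from the same line, and their deviations from the condition means correlated at 0.403 to 0.604 (at most 0.126 otherwise), so the line served as a replicate block beside the fit without it. Alternatives were DESeq2 1.42.0, limma 3.58.1 (voom), RLE and upper-quartile scaling, filters, protein-coding genes, a lowess GC correction and each library or line left out. The tests were run on simulated data with a known log2 difference of 1 in 196 of 17395 genes, of which 85.7% were recovered without and 85.2% with the block. False calls numbered 13 and 12. The changed genes were simulated without line differences and with the spread of the blocked fit. The simulation therefore cannot compare the fits with and without the block. Smaller differences were not simulated. The members and lists were chosen with earlier results of these data known. Every member is named, with full statistics for those past 0.05 with or without the block, and of each list at most 3 genes with the smallest p. A few counted genes outside this rule are marked. A gene of these lists is not reported here.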

Additional observations from a re-analysis of the deposited data

Results flagged for a closer look

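In 60 groups of 4 values examined (28 tested members in both conditions and library shares) 4 held a value far from the other 3, and chance gives about 1 in 20, or 3.0. *SELENOI* with serum was at 155 CPM in WT4 against a median of 195 over the 4 lines. *SELENOW* with serum was at 40.2 CPM in WT4, against a median of 33.1. *SELENOT* without serum was at 57.2 CPM in WT2 against a median of 54.1, in a group that spans less than 4 CPM. *SEPSECS* without serum was at 19.9 CPM in WT2 against a median of 22.3 CPM.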

How the results depend on the processing

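Over the 668 alternative fits of single members, 559 kept the direction and the side of the threshold, 64 passed it newly, 20 fell short of it and 25 turned direction, all 25 in members without a call. *SELENOT* and *SELENOW* were called lower under every alternative that was run. With the line as a replicate block 18 members changed (8 higher), and over all genes 3961 were lower and 4106 higher. The block changed no call of a named gene other than those given above. With block and GC correction 18 members changed (12 lower, 6 higher), with 40 genes of the other lists and, over all genes, 4331 lower and 3818 higher. Other alternatives, chosen after seeing the data, were GC correction without the block, where 13 members changed (3 higher) and 2935 of all genes were lower and 1842 higher, and the block with upper-quartile scaling, where 17 changed (9 higher) and 3106 of all genes were lower and 4936 higher. A further one left out the serum libraries of WT1 and WT2: 4 members changed (3 lower, 1 higher), 8 genes of the other lists, and 724 lower and 374 higher of all genes, with fewer samples. Higher members numbered 2 by DESeq2 (2355 of all genes), 2 by voom (2157), 2 among protein-coding genes (1915), 3 with upper-quartile scaling (2508) and 1 with at least 10 counts in every library (2093). Without a filter 12 members and 5285 of all genes differed between lines, against 7 and 4055. The cause of these differences was not tested.

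With GC correction *GPX4* turned to -0.05 with or without the block, *SELENOM* to -0.03 with and -0.01 without it, *SELENON* to -0.07 and -0.06, *SEPHS2* to -0.02 in both and *LRP8* to -0.07 in both. Without the serum libraries of WT1 and WT2 *GPX3* was at 0.35, *SELENON* at -0.03, *SEPHS2* at -0.05 and *LRP8* at -0.01. Upper-quartile scaling put *GPX3* at 0.03, or 0.04 with the block.

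Leaving out 1 library or 1 line gave 2 to 12 members changed, 2 to 9 lower and 0 to 4 higher, 12 to 33 genes of the other lists changed, 969 to 3279 of all genes lower and 620 to 2849 higher. Between lines 3 to 13 members and 2364 to 7580 of all genes differed. Single members that turned were *GPX3* (-0.17 to 0.13), *TXNRD2* (-0.17 to 0.07), *SECISBP2* (-0.01 to 0.08) and *LRP8* (-0.02 to 0.06). *DIO1* rests on 1 to 19 counts a library, and how often a change is found at such counts was not tested.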
